A study of Mus musculus with 6 samples.

Results

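Imprinted genes, 36 in number, were followed in adrenal glands of mice that lack Armc5 and of wild-type mice. They were chosen by name: a locus belonged to the set when its gene name in the count table, split at commas, held 1 of 36 symbols of imprinted genes. All 36 were found, each at 1 of the 59699 loci measured, and all 36 passed the filter on low counts. By the allele known to be expressed in mice, 20 of them are paternally expressed, 10 maternally, and 6 (Copg2, Ube3a, Blcap, Gnas, Grb10 and Inpp5f) from an allele that depends on tissue or isoform.

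The series holds 3 wild-type (WT) and 3 Armc5(-/-) (KO) samples of whole adrenal glands, all from females of 30 weeks with the strain background 129 sv X CD1, and the labels give no other allele and no agent. Total RNA was freed of rRNA and sequenced from both ends. The labels do not say whether each sample came from a separate animal or from pooled glands, nor which part of Armc5 is deleted, so p-values here cover only how far these samples vary, which may be technical. The comparison asks which imprinted transcripts differ in amount when Armc5 is lost.

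An imprinted gene is transcribed mainly from the copy inherited from 1 parent, because DNA methylation laid down in egg or sperm marks that copy at an imprinting control region. Imprinted genes lie in clusters, in which protein-coding growth regulators sit beside long noncoding RNAs, and the zinc finger protein ZFP57 keeps the methylation by binding a methylated hexamer, TGCCGC. Many are strongly expressed in fetal endocrine tissue and fall after birth; in the adrenal, Igf2 is a fetal growth factor, Dlk1 is known from chromaffin cells of the medulla, and loss of Cdkn1c enlarges the fetal adrenal cortex. Reads were not assigned to alleles here, so a higher count does not show which copy was transcribed.

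The promoters of 4 of the 5 genes that rose in KO are shown because these genes rose together and each has 1 start in the RefSeq table used. Each sequence is the 250 bases before that start on GRCm38.p6, written on the gene's strand. Capitals mark the ZFP57 hexamer TGCCGC (or its complement GCGGCA) and the letters TATAAA, the sequence of a TATA box, wherever they occur. The Dlk1 window is chr12:109452573-109452822 (plus strand), the Dio3 window chr12:110278980-110279229 (plus), the Plagl1 window chr10:13090582-13090831 (plus) and the Nap1l5 window chr6:58907127-58907376 (minus). The Dio3 window runs into the counted Dio3 locus, and the Plagl1 window lies inside the counted Plagl1 locus.
Dlk1: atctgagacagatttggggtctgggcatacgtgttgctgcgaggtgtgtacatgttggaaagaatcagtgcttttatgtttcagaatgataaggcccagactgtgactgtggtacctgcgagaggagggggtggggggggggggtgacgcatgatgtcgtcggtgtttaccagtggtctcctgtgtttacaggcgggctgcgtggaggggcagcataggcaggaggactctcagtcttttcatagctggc
Dio3: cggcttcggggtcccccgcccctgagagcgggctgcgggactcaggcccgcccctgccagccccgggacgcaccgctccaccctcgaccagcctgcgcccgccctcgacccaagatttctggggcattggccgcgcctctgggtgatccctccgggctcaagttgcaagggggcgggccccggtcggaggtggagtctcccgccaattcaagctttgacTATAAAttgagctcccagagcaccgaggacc
Plagl1: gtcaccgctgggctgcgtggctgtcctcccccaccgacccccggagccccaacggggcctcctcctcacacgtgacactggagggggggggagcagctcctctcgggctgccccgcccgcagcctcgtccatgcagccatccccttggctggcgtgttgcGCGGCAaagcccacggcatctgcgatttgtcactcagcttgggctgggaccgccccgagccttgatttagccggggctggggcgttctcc
Nap1l5: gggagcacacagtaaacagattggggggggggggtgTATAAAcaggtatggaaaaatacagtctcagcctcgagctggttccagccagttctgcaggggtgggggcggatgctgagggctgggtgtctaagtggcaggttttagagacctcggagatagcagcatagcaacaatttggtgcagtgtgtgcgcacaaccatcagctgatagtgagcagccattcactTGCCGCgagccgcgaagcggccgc

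The 4 windows differ in composition. Dio3 and Plagl1 hold 21 and 19 CG dinucleotides at 69.6% and 70.4% G and C, whereas Dlk1 and Nap1l5 hold 8 and 10 at 54.8% and 56.8%. The ZFP57 hexamer was present in the Plagl1 and Nap1l5 windows, and TATAAA in those of Dio3 and Nap1l5. TATAAA began 31 bases before the start in Dio3 and 214 bases before it in Nap1l5. Searched on both strands, the hexamer was present in 8.68% of 32851 such windows in RefSeq. It was present in 8 of 45 windows (17.8%) of the 30 imprinted genes that have one, and these 8 belong to 7 genes. The hexamer itself holds a CG, and the imprinted windows had a median of 10 CG dinucleotides against 6 in all windows. The part of this composition in the higher share was not tested. TATAAA, searched on the gene's strand, was present in 7.59% of all windows. These matches describe the letters only.

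Several of the loci are also hosts of microRNAs, whose mature sequences, from RefSeq on GRCm38.p6, are given with the seed (bases 2 to 8) in capitals. The 5 shown are 1 from each of the counted loci of H19, Meg3, Rian, Mirg and Mest in that order, and their seeds all differ. The miR-127 sequence lies in the counted Rian locus but before the start of Rian in GENCODE.
mmu-miR-675-5p: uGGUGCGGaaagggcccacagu
mmu-miR-770-5p: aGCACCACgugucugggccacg
mmu-miR-127-3p: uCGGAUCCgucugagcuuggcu
mmu-miR-410-3p: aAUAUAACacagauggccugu
mmu-miR-335-5p: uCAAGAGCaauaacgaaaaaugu
The Mirg locus spans 55 mature microRNAs with 52 different seeds, and the Rian locus 30 with 29 seeds. The host counts below are of longer RNA and do not measure these microRNAs.

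The libraries held 70547288 to 130573434 counts. Armc5 itself had 2763, 3263 and 2233 counts in WT and 395, 269 and 473 in KO, 7.47-fold lower per library size (adjusted p = 0.00041, edgeR). Of 21358 loci tested, 393 (1.84%) passed an adjusted p of 0.05 in edgeR's quasi-likelihood test, 301 (1.41%) higher and 92 (0.431%) lower in KO; such genes are called here, and p-values are adjusted over all these loci by the Benjamini-Hochberg method. Scaled by total counts alone, 639 were higher and 35 lower, and scaled to equal Rn7sk counts, 669 and 42. These scalings put the median log2 fold change of all loci at 0.2224 and 0.1939, against -0.0063 with the main scaling. KO replicate 3 stood apart: it held 295610 counts of Alb, the albumin of liver, against at most 1289 elsewhere. WT replicate 1 differed from the other WT libraries in markers of the cortex, with 72600 CPM (read counts scaled to library size) summed over 11 steroidogenic genes against 43100 and 55200. Values without 1 or both of these libraries are given for the called genes and for some of the other members.

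Igf2, Dlk1, Dio3, Plagl1 and Nap1l5 rose in KO, and no imprinted gene was called lower (0.431% of all loci were). The 5 are 13.9% of the 36 loci, beside 1.41% of all loci called higher, and all 5 are paternally expressed genes. Igf2, Dlk1, Plagl1 and Nap1l5 rose by 1.87-fold to 2.04-fold, and Dio3 rose 19.8-fold from a low level. Of the 36 loci, 27 had a positive log2 fold change (75.0%, against 49.3% of all loci), the median was 0.36 (all loci: -0.0063), and the values ranged from -0.74 for H19 to 4.31 for Dio3. All KO libraries exceeded all WT libraries at 19 loci (52.8%, against 16.3% of all loci), and the groups overlapped at 16. KO lay below WT at 1, Igf2r (2.78%, against 14.2% of all loci). The same 19 loci are those higher at an unadjusted p under 0.05 (52.8%, against 12.5% of all loci). DESeq2 called 16 of the 36 higher (44.4%, against 7.44% of all loci) and 0 lower (4.85% of all loci).

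The shift was even across the libraries of a group. The median deviation of the 36 loci from their WT mean was 0.02, 0.05 and -0.03 on the log2 scale in the WT libraries and 0.41, 0.38 and 0.39 in the KO libraries. The groups did not overlap in this median, and the KO libraries differed from each other by no more than the WT libraries did. The calls depended on which library was left out. Without WT replicate 1 edgeR called 5 of the 36 (383 of all loci), and without WT replicate 2 it called 4 (644 of all loci), Igf2 being lost. Without WT replicate 3, or without KO replicate 1, 2 or 3, it called 0 of the 36, when it called 20, 15, 22 and 37 of all loci. The fold changes of the 5 genes stayed positive in each of these 6 fits, but this is no check. Every KO library exceeded every WT library in these genes, so leaving out 1 library could hardly change the sign.

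**Figure D1:**
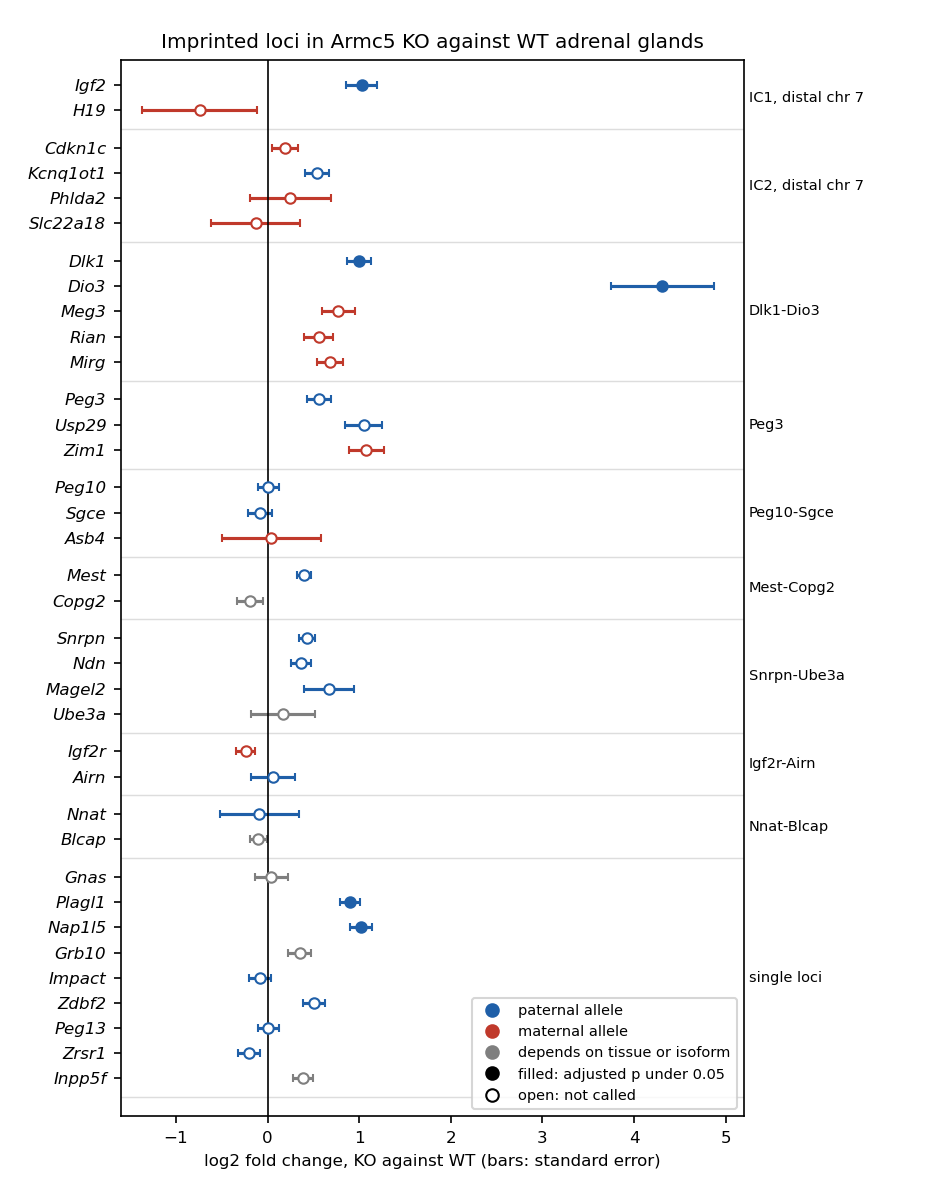
Log2 fold change of each of the 36 imprinted loci, KO against WT (x axis), with its standard error as a bar, grouped by cluster and coloured by the expressed allele; filled points passed an adjusted p of 0.05. The 5 filled points are paternally expressed genes and lie between 0.90 and 4.31, while the clusters Peg10-Sgce, Igf2r-Airn and Nnat-Blcap lie near 0.

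In the Dlk1-Dio3 cluster of chromosome 12 all 5 members were higher in every KO library than in any WT library. Its paternal genes encode proteins and its maternal transcripts are noncoding. Both paternal genes measured here were called, and the 3 maternal RNAs missed the threshold at adjusted p between 0.063 and 0.12.

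Dlk1, a transmembrane protein related to the Notch ligands (chr12:109452823-109463336, plus strand), had 232, 302 and 243 CPM in WT and 519, 537 and 496 in KO. The 3 KO values lay close together, and the lowest was well above the highest WT value. The rise was 2.00-fold, from 259 ± 37.9 CPM to 517 ± 20.4 (mean ± SD, n = 3 each; log2 fold change 1.00, standard error (SE) 0.13, edgeR adjusted p = 0.0265). Without KO replicate 3 the change was 1.03, and without both that library and WT replicate 1 it was 0.95.

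Dio3, the deiodinase that inactivates thyroid hormone (chr12:110279068-110281097, plus strand, GRCm38), had only 80, 42 and 38 counts in the WT libraries and 805, 1346 and 841 in the KO libraries. This was 0.79, 0.325 and 0.474 CPM in WT against 7.29, 17.7 and 6.5 in KO. KO replicate 2 was the highest, and even the lowest KO library was far above WT. The rise was from 0.53 ± 0.238 CPM to 10.5 ± 6.23 (mean ± SD, n = 3 each), 4.31 on the log2 scale (SE 0.56, edgeR adjusted p = 0.0274), and it was 4.98 without WT replicate 1 and KO replicate 3. Dio3 rose more than Dlk1 of the same cluster and allele: the log2 ratio of their counts was -8.2, -9.86 and -9 in WT and -6.15, -4.93 and -6.25 in KO.

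The maternal RNAs of the cluster, which run one after another on the plus strand, differed by similar amounts. Meg3, a long noncoding RNA, had 655, 597 and 426 CPM in WT and 897, 1030 and 939 in KO (log2 fold change 0.77, SE 0.18, edgeR adjusted p = 0.0807). Rian, a host of box C/D small nucleolar RNAs, had 424, 402 and 325 CPM against 513, 669 and 518 (0.56, SE 0.16, edgeR adjusted p = 0.12). Its counted locus merges 30 genes over 1.557 times the span of Rian in GENCODE, so the count is not of Rian alone. Mirg, the host of miR-410 and many others, had 40.2, 46.6 and 36.4 CPM against 64.5, 58.3 and 75.2 (0.68, SE 0.14, edgeR adjusted p = 0.063). The counted Mirg locus merges 23 genes over 1.733 times the GENCODE span. Every KO library was above every WT library in all 3 RNAs, and DESeq2 called each of them. The ratio of Dlk1 to Meg3 counts overlapped between the groups, with a mean log2 ratio of -1.1 ± 0.36 in WT and -0.88 ± 0.08 in KO (mean ± SD, n = 3 each). Rtl1, a retrotransposon-derived paternal gene that lies between Dlk1 and Dio3 and is not among the 36, had 13.7, 12.6 and 10.2 CPM in WT and 19.5, 28.6 and 19.4 in KO (0.89, SE 0.20, edgeR adjusted p = 0.0776).

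**Figure D2:**
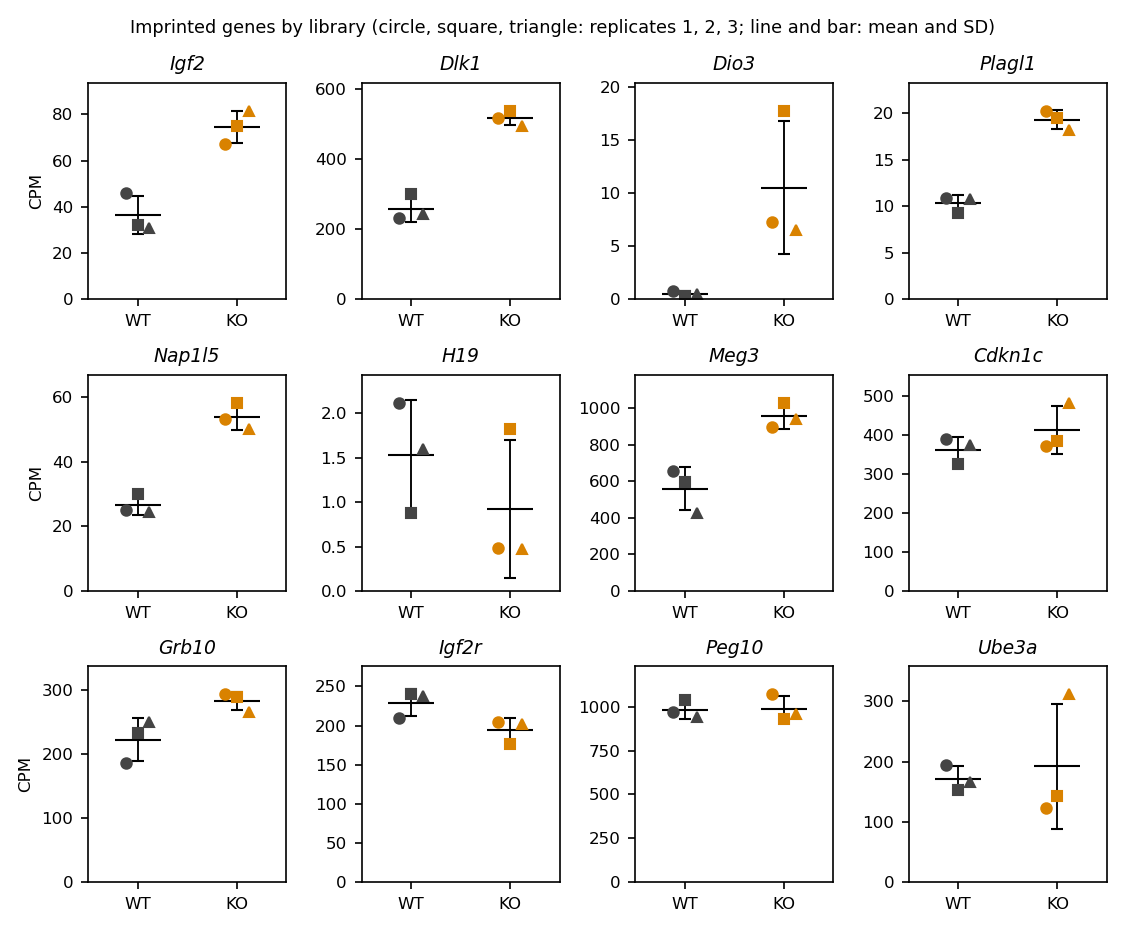
CPM (y axis, from 0) of 12 imprinted genes in each WT and KO library; circles, squares and triangles are replicates 1, 2 and 3, and lines and bars the mean and SD (n = 3). In Igf2, Dlk1, Dio3, Plagl1 and Nap1l5 all KO points lie above all WT points, whereas in H19, Cdkn1c, Peg10 and Ube3a the groups overlap.

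On distal chromosome 7, Igf2 and H19 share an imprinting control region (IC1) and enhancers, Igf2 being read from the paternal and H19 from the maternal copy. Igf2, a ligand of the IGF1 and insulin receptors, had 46.1, 32.3 and 31.1 CPM in WT and 67.3, 74.8 and 81.4 in KO. WT replicate 1 was the highest of the WT libraries and still below all of KO. The rise was 2.04-fold, from 36.5 ± 8.3 to 74.5 ± 7.08 CPM (mean ± SD, n = 3 each; log2 fold change 1.03, SE 0.17), and its adjusted p of 0.0487 in edgeR was just under the threshold. With RLE size factors, or without any 1 library other than WT replicate 1, Igf2 was not called, at adjusted p up to 0.162. The Igf2 locus as counted also needs care: it is merged with the gene model Gm49394 into 270478 bases (chr7:142399464-142669942, minus strand), 16.9 times the span of Igf2 in GENCODE. H19, Nctc1 and Prr33 lie inside it on the same strand. On the opposite strand 11 loci overlap it, among them Lsp1, Mrpl23, Tnnt3 and Igf2os.

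H19, a noncoding RNA (chr7:142575529-142578143, minus strand), was nearly silent in these adult glands, with 215, 114 and 128 counts in WT and 53, 139 and 61 in KO. That was 2.12, 0.883 and 1.6 CPM against 0.48, 1.82 and 0.471, so KO replicate 2 lay among the WT libraries. The log2 fold change was -0.74 (SE 0.63, edgeR adjusted p = 0.524), with overlapping groups and few counts. It was -1.69 when KO replicate 2 was left out, -0.43 when replicate 1 of either group was, -0.42 when KO replicate 3 was, and -0.11 when WT replicate 1 and KO replicate 3 both were. The log2 ratio of Igf2 to H19 counts was 4.44, 5.2 and 4.29 in WT and 7.13, 5.36 and 7.43 in KO, higher in every KO library, though KO replicate 2 differed little from WT replicate 2.

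The neighbouring cluster (IC2) is controlled by Kcnq1ot1, a paternal long noncoding RNA that silences its neighbours in cis. Kcnq1ot1 had 96.1, 111 and 102 CPM in WT and 174, 146 and 128 in KO, with no overlap (log2 fold change 0.54, SE 0.13, edgeR adjusted p = 0.0921, not called). The genes it silences on the paternal copy did not pass either. Cdkn1c, the cyclin-dependent kinase inhibitor p57, had 388, 324 and 373 CPM in WT and 371, 384 and 482 in KO (0.19, SE 0.14, edgeR adjusted p = 0.456); the value was 0.06 without KO replicate 3. Phlda2, which limits placental growth, had 1.25 ± 0.638 CPM in WT and 1.49 ± 0.161 in KO (mean ± SD, n = 3 each), and Slc22a18, a transporter-like protein, 9.66 ± 5.52 and 8.84 ± 1.17; WT replicate 3 was the lowest library for both, at 0.511 and 3.28 CPM. Kcnq1, read in the opposite direction across Kcnq1ot1, had 21.4 ± 4.77 CPM in WT and 13.6 ± 1.44 in KO (mean ± SD, n = 3 each; log2 fold change -0.65, SE 0.19, edgeR adjusted p = 0.126).

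All 3 members of the Peg3 cluster of proximal chromosome 7 had higher values in every KO library, and none was called. Zim1, a maternally expressed zinc finger gene, was the nearest to the threshold of all uncalled members: 5.2, 4.33 and 3.91 CPM in WT and 7.8, 9.62 and 11.1 in KO (log2 fold change 1.08, SE 0.19, edgeR adjusted p = 0.0512). Usp29, a paternally expressed ubiquitin-specific protease gene, had 1.83, 1.89 and 1.97 CPM against 3.36, 4.86 and 3.57 (1.05, SE 0.20, edgeR adjusted p = 0.0578). The estimates for both genes were as large as those of Igf2 and Dlk1. Peg3, a paternally expressed zinc finger gene, had 77.1, 72.4 and 95.3 CPM against 117, 129 and 114 (0.56, SE 0.13, edgeR adjusted p = 0.0776). The genes of opposite parental expression had values on the same side here, as in the Dlk1-Dio3 cluster.

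In the Snrpn-Ube3a cluster the 3 paternally expressed members were higher in every KO library, without a call. Snrpn, the spliceosomal protein SmN, had 44.1, 47.2 and 40.3 CPM in WT and 58.2, 60.9 and 58.4 in KO (log2 fold change 0.43, SE 0.09, edgeR adjusted p = 0.0656); its locus is merged with Snurf and Snhg14. Ndn, the MAGE family protein necdin, had 69, 80.7 and 86.9 CPM against 108, 99.9 and 98.8 (0.37, SE 0.11, edgeR adjusted p = 0.122). Magel2, of the same family, had 2.74, 3.87 and 4.36 CPM against 7.59, 5.15 and 4.7 (0.67, SE 0.27, edgeR adjusted p = 0.211). The lowest KO library of Magel2 was only just above the highest WT library. Ube3a, a ubiquitin ligase that is maternally expressed in neurons, had 195, 153 and 167 CPM in WT and 123, 143 and 312 in KO, and its log2 fold change went from 0.17 to -0.36 without KO replicate 3.

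Mest, a hydrolase-like protein expressed from the paternal copy, had 48.6, 47.9 and 54 CPM in WT and 68.6, 64.5 and 65.4 in KO (log2 fold change 0.40, SE 0.08, edgeR adjusted p = 0.0684). Its neighbour Copg2, a coatomer subunit that overlaps it on the opposite strand, had 138, 96.6 and 110 CPM against 105, 100 and 95.6 (-0.19, SE 0.14, edgeR adjusted p = 0.458), and -0.04 without WT replicate 1. The log2 ratio of Mest to Copg2 counts was -1.51, -1.01 and -1.02 in WT and -0.62, -0.64 and -0.55 in KO, with no overlap.

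Of the 9 loci listed singly, 2 were called. Nap1l5, a paternally expressed retrogene of the nucleosome assembly protein family that lies in an intron of Herc3 on the opposite strand (chr6:58905233-58907076, minus strand), had 25.2, 30.1 and 24.5 CPM in WT and 53.4, 58.3 and 50.2 in KO. It had the smallest p of the set: the level went from 26.6 ± 3.06 to 54.0 ± 4.09 CPM (mean ± SD, n = 3 each; 2.03-fold; log2 fold change 1.02, SE 0.12, edgeR adjusted p = 0.0204). Its host Herc3 had a log2 fold change of 0.47 (edgeR adjusted p = 0.147). Plagl1, a paternally expressed zinc finger transcription factor known to act on other imprinted genes (chr10:13060504-13131694, plus strand), had 10.9, 9.32 and 10.8 CPM in WT and 20.2, 19.5 and 18.2 in KO. The rise was 1.87-fold, from 10.3 ± 0.888 to 19.3 ± 1.05 CPM (mean ± SD, n = 3 each; log2 fold change 0.90, SE 0.11, edgeR adjusted p = 0.0241). In both genes the gap between the groups was wider than the range within either group.

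Another 3 of the single loci had no overlap between the groups and were not called. Zdbf2, a zinc finger protein, had 26.2, 31.6 and 29.7 CPM in WT and 42.9, 36.5 and 45.2 in KO (log2 fold change 0.51, SE 0.12, edgeR adjusted p = 0.0852). Inpp5f, an inositol polyphosphate phosphatase, had 48, 37.6 and 40.5 CPM against 53.4, 57.8 and 54.4 (0.39, SE 0.11, edgeR adjusted p = 0.122). Grb10, an adaptor that binds the insulin and IGF1 receptors and restrains growth, had 186, 233 and 250 CPM against 294, 290 and 267 (0.35, SE 0.13, edgeR adjusted p = 0.194). KO replicate 3 of Grb10 was only a little above the highest WT library.

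The other members gave no call and had overlapping groups, except Igf2r. Igf2r, the mannose 6-phosphate receptor that also clears IGF2, had 210, 240 and 238 CPM in WT and 205, 177 and 202 in KO, the only member below WT in every KO library. Its log2 fold change was -0.24 (SE 0.10, edgeR adjusted p = 0.245), and it was -0.01 with total counts and -0.03 with equal Rn7sk counts. Relative to the median of all loci in these fits, Igf2r stood at -0.24 and -0.23. Airn, the noncoding RNA antisense to it, had 8.59 ± 2 CPM in WT and 8.96 ± 2.09 in KO (mean ± SD, n = 3 each). The retrotransposon-derived Peg10 had 967, 1040 and 938 CPM in WT and 1070, 930 and 955 in KO (log2 fold change 0.01, SE 0.11, edgeR adjusted p = 0.984), and its neighbours Sgce (epsilon-sarcoglycan) and Asb4 (an ankyrin repeat protein) had log2 fold changes of -0.08 and 0.04.

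Gnas, which encodes the stimulatory G protein alpha subunit through which ACTH acts in the cortex, had 1080, 901 and 846 CPM in WT and 1200, 869 and 835 in KO (0.04, SE 0.18, edgeR adjusted p = 0.927). Nnat, a small membrane proteolipid, had 17, 14 and 32.2 CPM against 16.2, 12.9 and 30.3, with replicate 3 the highest in each group, and Blcap, within which it lies, had 62.2 ± 4.42 and 58 ± 3.48 (mean ± SD, n = 3 each). Impact, a regulator of the GCN2 kinase pathway, and Peg13, a noncoding RNA, had log2 fold changes of -0.08 and 0.01, and the retrogene Zrsr1 had -0.20 (SE 0.12, edgeR adjusted p = 0.35). With total counts, equal Rn7sk counts or the limma-trend fit, the small negative values of Slc22a18, Sgce, Copg2, Nnat, Blcap, Impact and Zrsr1 became small positive ones. Relative to the median of all loci, these genes stayed negative with total counts and with equal Rn7sk counts.

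By expressed allele, 5 of the 20 paternally expressed genes were called (25.0%), 0 of 10 maternally expressed genes and 0 of the 6 others, beside 1.41% of all loci. At an unadjusted p under 0.05 the counts were 13, 4 and 2 higher (12.5% of all loci) and 0 lower (9.73% of all loci). DESeq2 called 12, 4 and 0 higher (7.44% of all loci). The median log2 fold change was 0.47 for paternal, 0.22 for maternal and 0.10 for the other genes. These medians were 0.69, 0.45 and 0.34 with total counts, so their order was kept while all 3 moved up. Within clusters the picture was mixed: maternal and paternal members both had positive values in the Dlk1-Dio3 and Peg3 clusters, and Igf2 and H19 had values of opposite sign. The difference between the allele groups was not tested.

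Summed over the set, the counts also differed. The 20 paternal loci took 2120, 2340 and 2160 CPM in WT and 2790, 2640 and 2630 in KO, and the 10 maternal loci 1740, 1630 and 1410 against 2070, 2340 and 2240. Neither sum overlapped between the groups. Most of each sum comes from a few abundant members, Peg10 and Dlk1 in the paternal and Meg3, Rian and Cdkn1c in the maternal group.

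Per length of merged exons, the most abundant imprinted RNA was Cdkn1c, with 177 ± 16.4 CPM per kb in WT and 202 ± 29.7 in KO (mean ± SD, n = 3 each). Peg10 was next, with 147 ± 7.98 and 148 ± 11.4 CPM per kb. In WT, Gnas (52.6 ± 6.94 CPM per kb), Dlk1 (45.1 ± 6.61) and Peg13 (43.6 ± 3.52) did not differ beyond their spread. In KO, Dlk1 stood at 90.1 ± 3.55 CPM per kb, above Gnas at 54.0 ± 11.3 and Meg3 at 46.1 ± 3.18. Nap1l5 moved from 14.4 ± 1.66 to 29.3 ± 2.22 CPM per kb, about the WT level of Impact (28.1 ± 4.23). Igf2, a main growth factor of the fetus, was at a modest level per length in the adult gland, 5.27 ± 1.2 CPM per kb in WT and 10.8 ± 1.02 in KO. Dio3 went from among the lowest, at 0.261 ± 0.117 CPM per kb, to 5.17 ± 3.07, near the level of Slc22a18 in KO (5.2 ± 0.691). Usp29 and Asb4 were the lowest of the 36 over all libraries, at 0.161 and 0.153 CPM per kb. The 5 called genes were spread over much of this range.

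**Figure D3:**
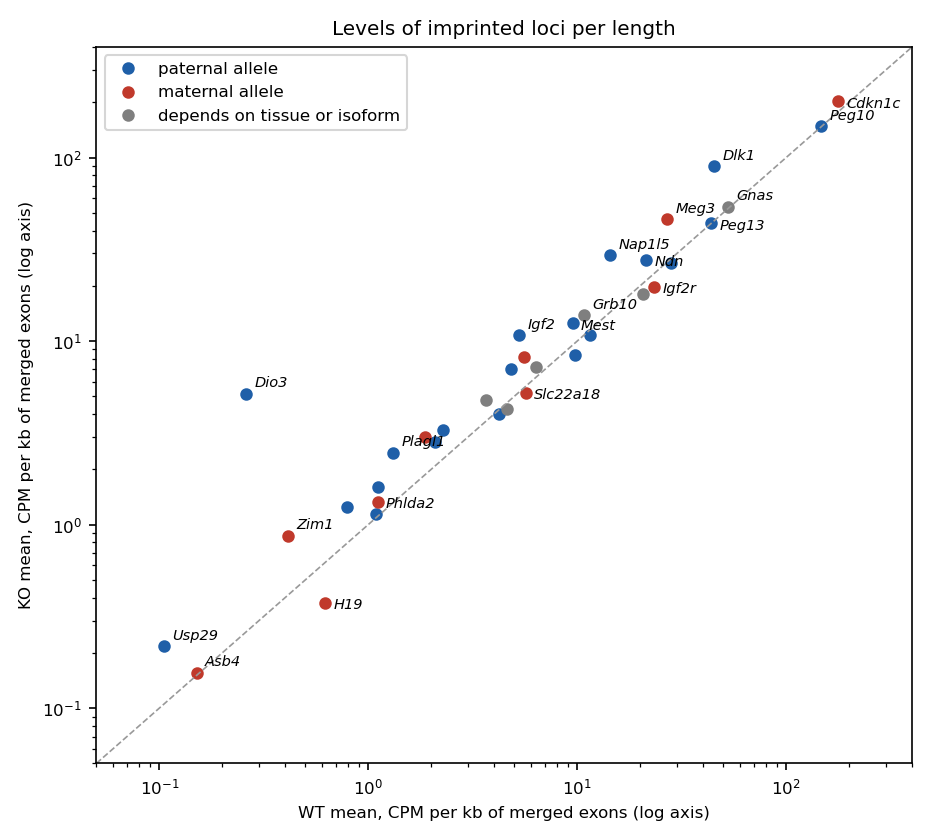
Mean level of each imprinted locus in KO (y axis) against WT (x axis), in CPM per kb of merged exons on log axes, coloured by expressed allele; the dashed line marks equal levels. Dio3 stands farthest above the line, from 0.261 to 5.17 CPM per kb, while Cdkn1c and Peg10, the most abundant, lie close to it.

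Genes around the imprinted loci were read as a second list: 37 neighbours, tested at 29 loci. This is not a list of genes free of imprinting: it holds the paternal gene Rtl1, and its members were not sorted by imprinting. Of these 0 were called (1.84% of all loci), 4 were higher and 5 lower at an unadjusted p under 0.05 (12.5% and 9.73% of all loci), and DESeq2 called 3 higher and 3 lower (7.44% and 4.85% of all loci). Their median log2 fold change was -0.05. Beside Rtl1 and Kcnq1 above, the smallest p-values were those of Osbpl5, an oxysterol-binding protein gene next to IC2, with 35.7 ± 2.99 CPM in WT and 26.2 ± 1.32 in KO (mean ± SD, n = 3 each; log2 fold change -0.45, SE 0.10, edgeR adjusted p = 0.0755), and of Cobl, an actin nucleator gene next to Grb10, with 5.37 ± 1.2 and 9.09 ± 1.59 CPM (0.76, SE 0.22, edgeR adjusted p = 0.125). Signs were mixed among the neighbours, and Th and Ddc in this list are also chromaffin markers.

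Genes that set, keep or erase imprints were given as a list of 22, with 19 tested. Tet1, an enzyme that oxidises methylated cytosine, was the 1 called higher (5.26% of those tested, against 1.41% of all loci): it had 8.07, 10.1 and 8.08 CPM in WT and 17.8, 16.9 and 15.8 in KO (log2 fold change 0.94, SE 0.13, 1.92-fold, edgeR adjusted p = 0.0345), and like the imprinted calls it was lost when WT replicate 3 or any KO library was left out, and also without WT replicate 1. The median of the list was 0.02. Zfp57 and Zfp445, zinc finger proteins that bind imprinting control regions, had log2 fold changes of -0.63 (SE 0.39, edgeR adjusted p = 0.387) and 0.21 (SE 0.11, edgeR adjusted p = 0.308). Their partner Trim28 had 73.7 ± 2.43 and 72.9 ± 1.4 CPM, the maintenance methyltransferase Dnmt1 66 ± 6.92 and 68.9 ± 2.64, and the insulator protein Ctcf 40.6 ± 1.76 and 40.7 ± 3.76 in WT and KO (mean ± SD, n = 3 each), within the spread of the libraries.

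Because Dio3 removes thyroid hormone, 9 genes of thyroid hormone action were read beside it, 8 of them tested. Klf9, a target of the thyroid hormone receptor and of glucocorticoids, had 195, 190 and 215 CPM in WT and 133, 138 and 139 in KO. It was the 1 of the 8 called (12.5%, against 0.431% of all loci lower) and fell 1.46-fold (log2 fold change -0.55, SE 0.09, edgeR adjusted p = 0.0437), and was not called with total counts (-0.32, adjusted p = 0.101) or equal Rn7sk counts (-0.35, adjusted p = 0.214), nor without any 1 library other than WT replicate 2. Dio2, the deiodinase that makes active hormone, had 0.346, 10.6 and 1.83 CPM in WT and 0.471, 0.42 and 0.441 in KO, so that WT replicate 2 set its fold change, -3.26 on the log2 scale (SE 1.14, edgeR adjusted p = 0.173). Slc16a10, a thyroid hormone transporter, and the receptor Thra had log2 fold changes of 0.36 and 0.38 (edgeR adjusted p = 0.198 and 0.304). The list had a median of -0.07.

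Markers of the gland's cell types moved as well. Of 17 chromaffin markers tested, 5 were called higher (29.4%, against 1.41% of all loci): Chga, Dbh, Gata3, Hand2 and Phox2a. Of the 17, 16 had positive values (94.1%, against 49.3% of all loci), the median log2 fold change was 0.85 and none was at 0. Their summed level was 2990, 4370 and 3110 CPM in WT replicates 1, 2 and 3, and 6790, 6360 and 6070 in those of KO. WT replicate 2 thus stood above the other WT libraries and below all KO libraries. Chga, the granule protein chromogranin A, had 540, 726 and 584 CPM in WT and 1120, 1110 and 1160 in KO (log2 fold change 0.87, SE 0.14, edgeR adjusted p = 0.044), a change close in size to those of Dlk1, Plagl1 and Nap1l5. The other called markers had log2 fold changes of 0.79 (Dbh and Phox2a), 0.93 (Hand2) and 0.98 (Gata3). Of 11 steroidogenic markers 0 were called (1.84% of all loci), and 10 had negative values, as did 10830 of all 21358 loci. Every KO library lay below every WT library at 4 of them (36.4%, against 14.2% of all loci). Their median was -0.48, and the sum was 43100 to 72600 CPM in WT and 33700 to 39000 in KO. Capsule and stroma markers, 11 in number, had a median of -0.12 and sums of 434 to 576 CPM in WT and 353 to 451 in KO.

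The part of these markers in the differences of the imprinted genes was not tested, and in whole glands more cells of a type and more RNA per cell cannot be told apart. Among the other lists, 0 genes were called (1.84% of all loci). The medians were -0.47 for adipocyte, -0.39 for endothelial, -0.65 for Schwann and glial, -0.12 for X-zone, -0.30 for macrophage and -0.39 for lymphocyte markers. Every KO library lay below every WT library at 55.6% of endothelial and 50.0% of Schwann and glial loci (14.2% of all loci). This share was 0.0% to 16.7% in the adipocyte, X-zone, macrophage and lymphocyte lists. Hepatocyte markers summed to 112 to 182 CPM in 5 libraries and 4150 in KO replicate 3. The 5 called imprinted genes were about as high without that library, with log2 fold changes of 0.96 (Igf2), 1.03 (Dlk1), 4.56 (Dio3), 0.94 (Plagl1) and 1.07 (Nap1l5). In that fit none of the 5 was called, at edgeR adjusted p of 0.0627 (Dio3) to 0.135 (Igf2). The part of liver RNA in these values was not tested.

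**Figure D4:**
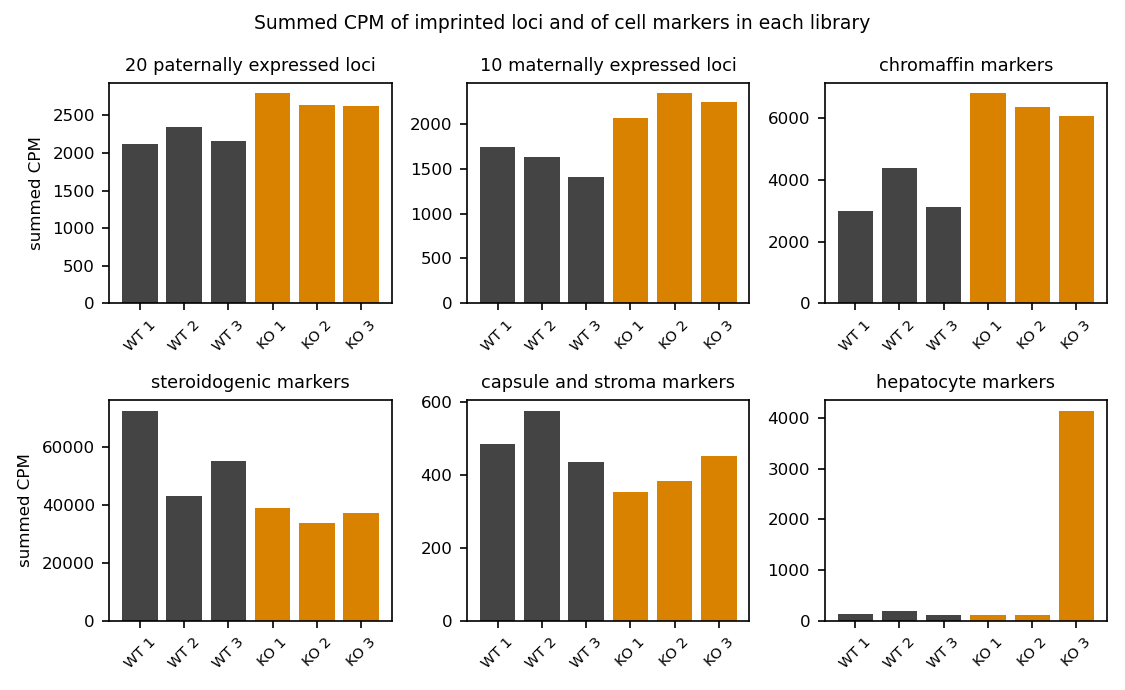
Summed CPM (y axis, from 0) in each library of the paternally and maternally expressed imprinted loci and of 4 lists of cell markers; each bar is 1 library. The imprinted sums and the chromaffin sum are higher in all KO libraries, the steroidogenic sum is lower, and the hepatocyte sum stands out in KO replicate 3 at 4150 CPM.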

How the data were processed

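Adrenal gland RNA of 3 WT and 3 KO samples was measured by stranded sequencing, per the labels' protocols. Per the submitters' processing notes the authors used Trimmomatic, STAR, Picard, StringTie and edgeR with GRCm38. The sources used here give no version, read counter or strand setting, so loci that overlap on opposite strands may share reads. Such pairs include Igf2r and Airn, Mest and Copg2, Nnat and Blcap, Nap1l5 and Herc3, Kcnq1ot1 and Kcnq1, and Rian and Rtl1. Others are Ube3a and Snhg14, Gnas and Nespas, and the wide Igf2 locus with 11 loci. The authors deposited whole-number read counts per locus, raw per the file headers, and log2 CPM values of the same libraries, used in 1 alternative fit; 2 columns of group values were not used. Locus and exon lengths in base pairs came from the same deposited table. Of 59699 loci, 6596 without a gene name (1.39% to 2.04% of counts) were left out. Of the 36 imprinted loci, 11 merge several genes, 2 of them (Igf2 and Snrpn) with another protein-coding gene, and 6 are wider than 100 kb.

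Counts were filtered with filterByExpr by group, scaled by TMM and compared by the quasi-likelihood test of edgeR 4.0.16 (robust glmQLFit, glmQLFTest, two-sided, R 4.3.3), with Benjamini-Hochberg adjustment over 21358 loci; CPM uses TMM-scaled library sizes, and the SE is the log2 fold change divided by the square root of F. The members and the lists were chosen with earlier results of these data known, so counts over them are descriptions without a test, and p-values are never adjusted over a list alone. Values by library are given for members with an unadjusted p under 0.05, for the most abundant of each cluster and for Igf2, H19, Dlk1, Meg3, Cdkn1c, Peg3, Grb10, Igf2r, Gnas and Dio3; of the neighbour, imprint maintenance and thyroid hormone lists, called genes and up to 4 of the smallest p are named, and of each marker list a few members. Alternatives were RLE size factors, total counts, equal Rn7sk counts, no filter, a minimum of 10 CPM in 3 libraries, a block for the replicate number, each library left out, WT replicate 1 and KO replicate 3 left out together, DESeq2 1.42.0, limma-trend (limma 3.58.1) and single-gene loci. For Armc5, Tet1 and Klf9 they were run after the data were seen. Promoters and microRNAs are from RefSeq.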

Additional observations from a re-analysis of the deposited data

How the results depend on the processing

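No alternative called an imprinted gene lower. The 5 imprinted calls, the 393 calls of all loci and the median log2 fold change of 0.36 became 13, 674 and 0.58 when scaled by total counts, 11, 711 and 0.55 with equal Rn7sk counts, and 14, 975 and 0.61 with limma-trend on the deposited log2 CPM; relative to the median of all loci, these 3 medians were 0.36, 0.36 and 0.39. DESeq2 gave 16 and 2626 calls. At least 10 CPM in 3 libraries left 28 imprinted loci, with 6 called and a median of 0.43, and single-gene loci gave 4 called and a median of 0.19. Leaving out 1 library gave 0 to 5 imprinted calls, 15 to 644 of all loci (644 without WT replicate 2) and medians of 0.33 to 0.40; without both WT replicate 1 and KO replicate 3 the calls were 0 and 16. No label says what the replicate number marks. Deviations of same-numbered samples from their group means correlated at -0.0857, 0.0118 and -0.142, which with 3 samples per group cannot settle whether they were paired. With the replicate block 0 imprinted and 5 of all loci were called. The cause of these changes was not tested.

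Among uncalled members, 49 values changed sign. The median of all loci itself became 0.2224 with total counts, 0.1939 with equal Rn7sk counts and 0.2205 with limma-trend. Slc22a18 became 0.09 with total counts, with equal Rn7sk counts and with the replicate block, 0.19 without both libraries and 0.33 with limma-trend. With total counts, equal Rn7sk counts and limma-trend, Sgce became 0.16, 0.11 and 0.14, Copg2 0.05, 0.02 and 0.05, Nnat 0.15, 0.14 and 0.13, Blcap 0.13, 0.11 and 0.12, Impact 0.13, 0.11 and 0.15, and Zrsr1 0.03, 0.01 and 0.02. Without both libraries Sgce became 0.01, Asb4 -0.01, Ube3a -0.26, Airn -0.06 and Peg13 -0.02; Nnat (-0.66) and Gnas (0.25) kept their sign. Leaving out 1 library gave -0.12 to 0.49 for Phlda2, -0.54 to 0.14 for Slc22a18, -0.06 to 0.07 for Peg10, -0.42 to 0.67 for Asb4, -0.36 to 0.41 for Ube3a, -0.14 to 0.23 for Airn, -0.53 to 0.35 for Nnat, -0.15 to 0.15 for Gnas, -0.19 to 0.05 for Impact and -0.06 to 0.08 for Peg13. H19, Phlda2 and Asb4 had the fewest counts, which limits what could be detected.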

Other observations

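Nespas, a noncoding RNA antisense at the Gnas locus, had 3.34 CPM in WT replicate 2 and 0.168 to 0.426 CPM in the other 5 libraries (431 counts against 15 to 47). Dio1, the deiodinase of liver, had 556 counts in KO replicate 3, 3 in WT replicate 1 and 0 in the other libraries. Akr1c18, a marker of the X-zone of the inner cortex, varied within both groups, with 11429, 10 and 14 counts in WT and 15658, 211 and 3766 in KO. These values were singled out after they were seen.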
